A study of Mus musculus with 8 samples.

Results

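Slc1a2 and Slc1a3 encode the sodium-coupled glutamate carriers GLT-1 and GLAST, and both were taken by gene symbol from the 9140 genes measured, so that 2 of 9140 genes are described here and both were detected in all 8 libraries. The cells were mouse primary hippocampal neural progenitor cells (NPCs) grown from microdissected dentate gyrus of embryonic day 18 embryos, for which the study's methods name an earlier embryonic day. The day 0 libraries come from cultures given EGF and FGF2, under which such cells stay undifferentiated, and those of days 2, 4 and 8 from cultures that had gone that long without either factor. Embryos came from C57BL/6J mothers and fathers heterozygous for the gene trap allele Mll2Gt(RRt024)Byg of the histone methyltransferase gene Kmt2d, so each genotype group holds either Kmt2d+/βgeo cells or wild-type cells. The wild-type cells carry the strain label C57BL/6J, and the culture protocol calls them Kmt2d+/+ littermates. Each genotype and day has 1 droplet library (10x Genomics Chromium, 3′ tags), which makes 30408 cells in all and leaves no replicate of any group, so no test between libraries was made.

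Glutamate released at synapses is cleared by carriers of the SLC1 family, which bring it into the cell together with sodium. Astrocytes hold most of this uptake in the forebrain, where Slc1a2 is the leading carrier of mature astrocytes and Slc1a3 is already present in radial glia and in neural stem cells of the dentate gyrus. Inside the astrocyte, glutamine synthetase (Glul) turns glutamate into glutamine, which neurons take back through carriers such as Slc38a1.

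Slc1a2 (ENSMUSG00000005089) lies on chromosome 2 at 102658659 to 102790784 on the plus strand of GRCm38, and Slc1a3 (ENSMUSG00000005360) lies on chromosome 15 at 8634124 to 8710764 on the minus strand. GENCODE M21 gives the first gene 12 transcripts and the second 8. An exon of Slc1a2 overlaps the gene Gm13872 on the opposite strand, so a few of its tags could belong to that gene if strand was not used in counting, whereas no exon of another gene overlaps Slc1a3. Both genes had higher mean levels at day 2 than at day 0 in both genotypes, and for that reason the 250 bases before the RefSeq start of each are shown (GRCm38.p6), 5′ to 3′ on the gene's strand. Capitals mark matches on either strand to an E-box (CANNTG), to the NFI motif TTGGC or to the CRE motif TGACG. The NFI and CRE motifs used here are each a part of a longer site, and full sites were not searched for.

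Slc1a2, chr2:102706188-102706437, plus strand: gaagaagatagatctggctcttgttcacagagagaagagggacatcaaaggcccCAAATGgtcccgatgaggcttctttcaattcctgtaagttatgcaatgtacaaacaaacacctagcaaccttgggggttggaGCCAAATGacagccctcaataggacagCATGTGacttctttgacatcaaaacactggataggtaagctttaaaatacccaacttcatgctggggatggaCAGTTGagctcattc

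Slc1a3, chr15:8710808-8711057, minus strand: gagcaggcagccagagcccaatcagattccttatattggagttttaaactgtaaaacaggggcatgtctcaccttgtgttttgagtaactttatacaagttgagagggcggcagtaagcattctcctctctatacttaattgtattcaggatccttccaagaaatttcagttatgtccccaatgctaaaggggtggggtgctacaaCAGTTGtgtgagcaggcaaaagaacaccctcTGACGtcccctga

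The Slc1a2 window held 4 E-boxes and 1 NFI motif, and that motif overlaps the second E-box, so they appear as 1 run of capitals. The Slc1a3 window held 1 E-box and 1 CRE motif. Among 32851 promoter windows of the same length, 66.2% held an E-box, 41.5% an NFI motif and 17.8% a CRE motif. The start used for Slc1a2 lies 47779 bases inside the deposited gene, and that for Slc1a3 lies 43 bases outside the gene's first base. Tags at the 3′ end do not tell which start a transcript used.

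The libraries held 2534 to 4900 cells, with median totals of 7926 to 23219 UMIs (unique molecular identifiers, 1 per captured molecule) per cell. The lowest total was in the Kmt2d+/βgeo day 8 library. On the measured genes alone the medians were 3972 to 11229.5 estimated UMIs per cell, again lowest in that library. The targeted gene, Kmt2d, does not separate the genotypes in these tags. Its mean normalised count at days 0, 2, 4 and 8 was 0.193, 0.171, 0.295 and 0.290 in the libraries labelled Kmt2d+/βgeo. In wild type it was 0.157, 0.197, 0.237 and 0.241, so the Kmt2d+/βgeo library was the lower only at day 2. Luzp2, which parts the genotypes in the other libraries and was picked for that after its values had been seen, had a mean normalised count of 0.287, 1.48 and 2.62 in the Kmt2d+/βgeo libraries of days 0, 2 and 8 and 0.00824 to 0.0575 in wild type. In the library labelled Kmt2d+/βgeo day 4 it was 0.0502, and none of 7459 genes differed by a log2 ratio of 1 between the day 4 libraries. Whether that library carries the right label was not tested, so day 4 is given by its labels only and the carriers are also compared between days 0, 2 and 8. No pair of libraries shared more than 10 cell barcodes. Of the labelled cell type's markers, 6 of 9 progenitor markers were measured (Pax6, Fabp7, Vim, Sox9, Hopx and Prox1), and their summed mean normalised count was 60.7 to 130 across libraries.

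Slc1a2 had its lowest levels in undifferentiated cells and was 2.13-fold to 5.48-fold higher at days 2 and 8 of the same genotype. Levels are mean normalised counts per cell, the deposited log2 values turned back to a linear scale on which every cell sums to 8707 over the measured genes. Intervals are 95% Poisson intervals of the pooled UMIs and cover counting error only. In the Kmt2d+/βgeo libraries the mean normalised count of Slc1a2 was 0.498 (0.479 to 0.517) at day 0, 2.19 (2.15 to 2.23) at day 2, 3.75 (3.69 to 3.82) at day 4 and 2.08 (2.00 to 2.15) at day 8. In the wild-type libraries it was 0.721 (0.699 to 0.742), 3.95 (3.89 to 4.01), 3.53 (3.47 to 3.59) and 1.53 (1.49 to 1.58) at the same days. The wild-type day 2 library was thus the highest and the day 0 libraries the lowest. In the order of the 8 levels, only the Kmt2d+/βgeo libraries of days 2 and 8 were neighbours with overlapping intervals, while the spread between libraries of 1 kind is not known. The mean normalised count of Top2a, a topoisomerase of dividing cells, was 3.5 and 3.3 at day 0 (Kmt2d+/βgeo and wild type) and 0.0550 to 0.142 in the later libraries, and its part in the result was not tested.

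Slc1a3 was already high in undifferentiated cells and varied less. Its mean normalised count in the Kmt2d+/βgeo libraries was 7.97 (7.90 to 8.05) at day 0, 14.1 (13.9 to 14.2) at day 2, 15.0 (14.8 to 15.1) at day 4 and 9.03 (8.87 to 9.19) at day 8. In wild type it was 9.64 (9.56 to 9.72), 23.3 (23.2 to 23.5), 14.2 (14.1 to 14.4) and 12.4 (12.3 to 12.6). Here too the wild-type day 2 library stood highest. Its interval lay above those of the other 7 libraries, and the only neighbours with overlapping intervals were wild-type day 4 and Kmt2d+/βgeo day 2.

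**Figure D1:**
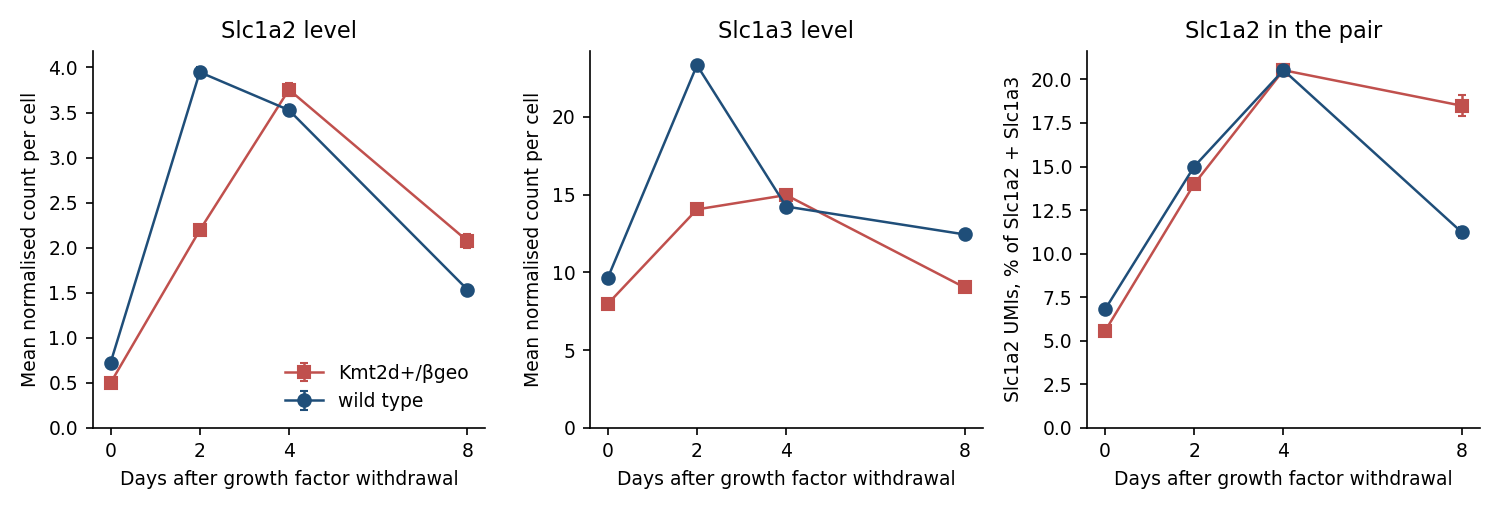
Mean normalised count per cell of Slc1a2 (left) and Slc1a3 (middle) and the Slc1a2 share of the pair's UMIs in percent (right) against days after growth factor withdrawal, 1 point per library, with 95% counting intervals mostly smaller than the points. Both genes were highest in wild type at day 2, at 3.95 and 23.3, and the Slc1a2 share went from 5.55% and 6.80% at day 0 to 20.5% in both day 4 libraries.

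The first question the design poses is how the 2 carriers differ between days within a genotype. A gene counted as higher or lower where the log2 ratio of mean normalised counts reached 1, among genes with a mean of 0.1 or more in 1 or both libraries. From day 0 to day 2 the log2 ratio of Slc1a2 was 2.14 in Kmt2d+/βgeo (4.41-fold higher) and 2.45 in wild type (5.48-fold higher). For Slc1a3 the log2 ratio was 0.82 and 1.27. Both members passed the threshold in wild type, where 8.08% of 7451 genes were higher, and 1 of 2 passed in Kmt2d+/βgeo, where 10.7% of 7502 genes were higher. Only 50 genes in wild type and 140 in Kmt2d+/βgeo had a larger ratio than Slc1a2.

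From day 2 to day 8 both carriers had negative log2 ratios in both genotypes. Slc1a2 had the lower ratio in wild type and Slc1a3 in Kmt2d+/βgeo. Between days 2 and 8 the log2 ratio of Slc1a2 was -1.36 in wild type, past the threshold as for 6.14% of 7641 genes that were lower, and -0.08 in Kmt2d+/βgeo, where 10.2% of 7733 genes were lower and neither member was. For Slc1a3 the log2 ratio was -0.91 in wild type and -0.64 in Kmt2d+/βgeo. At day 8 Slc1a2 was still above its day 0 level, with a log2 ratio of 2.06 in Kmt2d+/βgeo (19% of 7765 genes were higher) and 1.09 in wild type (16.3% of 7737 genes). Slc1a3 was nearer to its day 0 level than Slc1a2 was. The day 8 over day 0 log2 ratio of Slc1a3 was 0.37 in wild type, or 1.29-fold higher. In Kmt2d+/βgeo it was 0.18, where the median gene stood at 0.11, and it became -0.02 as a difference of mean log2 values. On that second scale, which understates the change of low genes, Slc1a2 from day 0 to day 2 in wild type was the only one of these ratios still past 1 (1.15). The day comparisons of a genotype share libraries, so they are not independent of each other.

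The steps through day 4 rest on the library in doubt. From day 2 to day 4 the log2 ratio of Slc1a2 was 0.78 in the libraries labelled Kmt2d+/βgeo (8.71% of 7638 genes passed in either direction) and -0.16 in wild type (5.39% of 7529 genes passed). Slc1a3 had log2 ratios of 0.09 and -0.71, the first of them -0.05 relative to the median gene. Neither member passed the threshold in that step. From day 4 to day 8 Slc1a2 had a log2 ratio of -1.2 in wild type (-0.69 as a difference of mean log2 values), where 1.6% of 7578 genes were lower, and -0.86 in the libraries labelled Kmt2d+/βgeo, where 7.4% of 7726 genes were lower. Slc1a3 had -0.19 and -0.73 in that step.

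The second question is how the genotypes differ at a day. Kmt2d+/βgeo over wild type, the log2 ratio of Slc1a2 was -0.53 at day 0, -0.85 at day 2, 0.09 between the day 4 libraries and 0.44 at day 8. That of Slc1a3 was -0.27, -0.73, 0.07 and -0.46. Neither member reached the threshold at any day, as against 1.55%, 2.84%, 0% and 4.87% of the 7117 to 7576 genes compared. The day 2 ratios lay far down the list all the same, with 129 of 7364 genes below Slc1a2 and 181 below Slc1a3. Day 8 was the day at which the 2 carriers pointed in opposite directions: the library labelled Kmt2d+/βgeo held more Slc1a2 and less Slc1a3 than wild type. As differences of mean log2 values these were 0.10 and -0.59. In pooled UMIs the difference between the members' log2 ratios was 0.84 at day 8 (95% counting interval 0.77 to 0.92) and -0.12 at day 2 (-0.15 to -0.08). Total UMIs per cell differed between the same day 8 libraries, with medians of 7926 and 14243, and their part in the result was not tested.

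The balance of the pair moved with the day. A 3′ tag counts 1 UMI per molecule whatever its length, so the UMIs of both genes can be added, although capture may differ between genes. Slc1a2 made up 5.55% of the pair's UMIs at day 0 in Kmt2d+/βgeo and 6.80% in wild type, where 2673 and 4316 Slc1a2 UMIs stood beside 45463 and 59190 of Slc1a3. At day 2 its share was 14% and 15.0%, and at day 4 it was 20.5% in both libraries. At day 8 the share was 18.5% (17.9 to 19.1) in Kmt2d+/βgeo and 11.2% (10.9 to 11.5) in wild type. Slc1a3 had the higher mean normalised count in every library, from 16.0 times the level of Slc1a2 in Kmt2d+/βgeo at day 0 to 3.99 times at day 4.

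To compare shares of cells, each cell was thinned to 3000 UMIs of the measured genes. The 786 cells with fewer on these genes were left out, 759 of them from the Kmt2d+/βgeo day 8 library. At least 1 Slc1a2 UMI was then present in 14.4% of cells in Kmt2d+/βgeo and 18.2% in wild type at day 0, in 39.9% and 54.4% at day 2, in 55.6% and 53.2% at day 4, and in 41.1% and 35.3% at day 8. Before thinning the shares ran from 35.8% to 77.0%. The order of the libraries by thinned share was that of their levels, except that the library labelled Kmt2d+/βgeo day 4 stood above wild-type day 2 and Kmt2d+/βgeo day 8 above Kmt2d+/βgeo day 2, both pairs with overlapping binomial intervals.

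Slc1a3 UMIs were found in 87.7% to 95.1% of thinned cells and in 91.5% to 99.1% before thinning. With 2 or more UMIs required, Slc1a3 was present in 68.1% to 87.8% of thinned cells and Slc1a2 in 2.51% to 32.9%. No cell type known to lack these carriers was defined, and the nearest measured group is the cells with a UMI of Rbfox3, which encodes a nuclear protein of mature neurons. In the 7 libraries with enough such cells (32 to 195), 80.6% to 97.7% had a Slc1a3 UMI and 18.8% to 51.3% a Slc1a2 UMI at 3000 UMIs per cell. Against cells without an Rbfox3 UMI, the Slc1a2 difference was -17.5 points at Kmt2d+/βgeo day 2 and -14.5 at wild-type day 8. At day 4 it was -19.9 (Kmt2d+/βgeo) and -24.8 (wild type), and in the remaining libraries its interval included 0. The Slc1a3 difference ran from -11.6 to -4.13 points, except at wild-type days 0 and 8, where its interval included 0. Free RNA in the droplets was not tested as a source, so a share is read here as cells with a UMI and not as cells expressing the gene.

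The members were more closely tied across cells on days 2 and 4 than on days 0 and 8, by the correlation and by the odds ratio below. Over thinned cells, Pearson's r between log2(UMIs + 1) of the genes was 0.112 in Kmt2d+/βgeo and 0.132 in wild type at day 0, 0.359 and 0.507 at day 2, 0.364 and 0.376 at day 4, then 0.120 and 0.114 at day 8. These are descriptions over 2206 to 4900 cells of 1 library each. The correlation was thus lowest in the undifferentiated and the day 8 libraries in both genotypes. The Kmt2d+/βgeo libraries of days 2 and 8, with r of 0.359 and 0.120, had thinned means of 0.748 and 0.699 UMIs per cell for Slc1a2 and of 4.88 and 3.12 UMIs for Slc1a3. At day 0 the thinned means of Slc1a2 were lower, at 0.176 and 0.249 UMIs per cell (Kmt2d+/βgeo and wild type). The part of these levels in r was not tested.

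**Figure D2:**
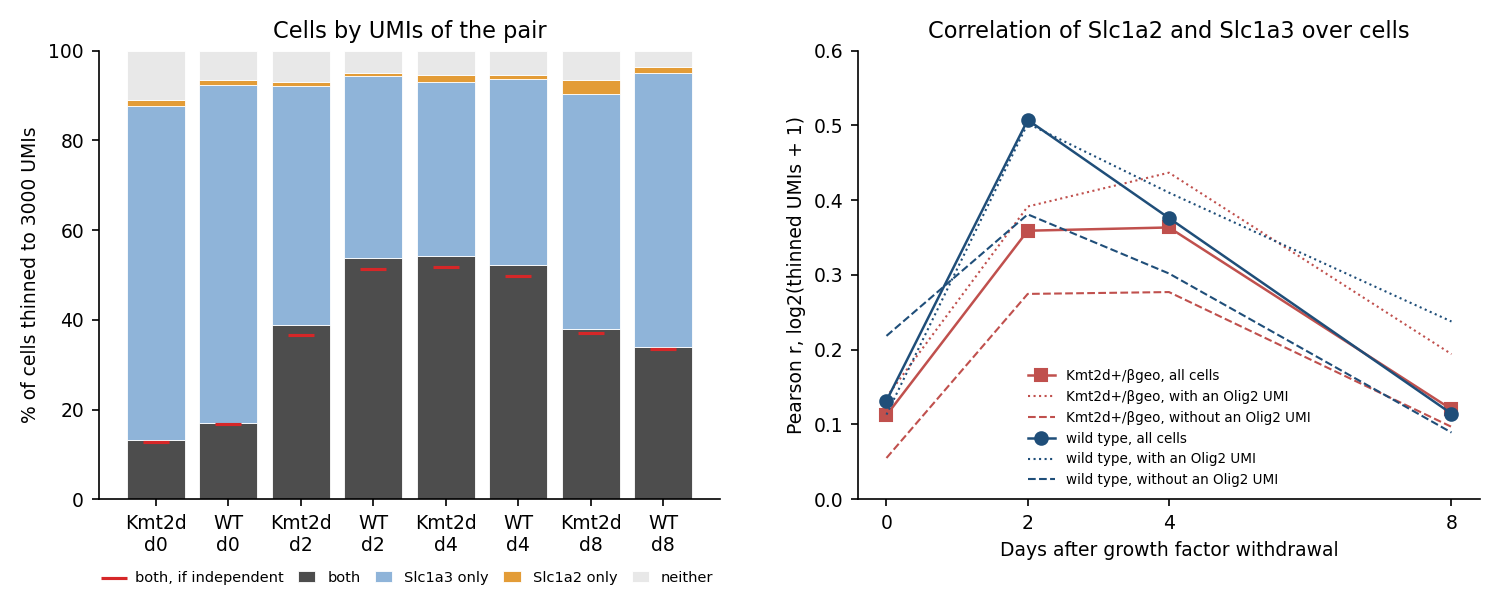
Left, percent of cells thinned to 3000 UMIs that had a UMI of both genes, of 1 gene or of neither, per library (Kmt2d, labelled Kmt2d+/βgeo; WT, wild type; d, day), with a red line at the share of cells with both expected from the separate shares. Right, Pearson r of the pair over cells by day, for all cells and for cells with and without an Olig2 UMI. Cells with both genes made up 13.2% to 54.1% of a library, and r was highest in wild type at day 2 (0.507).

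The share of cells with both genes hardly parted days 2 and 8 in Kmt2d+/βgeo. It was 38.9% (37.5 to 40.3) at day 2 and 37.9% (35.9 to 40.0) at day 8, with overlapping intervals, beside 13.2% at day 0 and 54.1% at day 4. At wild-type day 2, 2204 of 4098 thinned cells (53.8%) had a UMI of both genes, where the separate shares would give 51.4%. Just 27 cells had Slc1a2 alone. At wild-type day 8 the figures were 34.0% and 33.5%. The log2 odds ratio of having both was 2.40 and 3.29 at day 2 (Kmt2d+/βgeo and wild type), 2.31 and 2.71 at day 4, against 0.61 and 0.72 at day 8 and 0.61 with 0.42 at day 0. Few cells lacked Slc1a3 while holding Slc1a2, between 27 and 69 per library, so the odds ratios carry wide error. With 2 or more UMIs of each gene required, the log2 odds ratio was 1.81 and 1.86 at day 0, 3.0 and 3.81 at day 2, 2.58 and 2.41 at day 4, then 0.74 and 0.81 at day 8.

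At days 2 and 8 cells with more Slc1a2 also held more Slc1a3 on average. At wild-type day 2 the mean Slc1a3 count per thinned cell was 5.10 ± 4.51 UMIs (SD over 1867 cells) in cells with no Slc1a2 UMI, 8.49 ± 5.28 with 1, 10.7 ± 5.31 with 2 and 12.6 ± 5.62 with 3 or more. At wild-type day 8 it was 4.17 ± 2.63, 4.37 ± 2.65, 4.88 ± 3.03 and 6.32 ± 4.17 in the same classes. The spread over cells was wide in all classes and overlapped between them. In Kmt2d+/βgeo the means ran from 3.89 to 7.89 UMIs at day 2 and from 2.94 to 3.99 at day 8. At Kmt2d+/βgeo day 0 they did not go up at each step, with 4.27 UMIs at 2 Slc1a2 UMIs and 4.00 at 3 or more (23 cells).

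**Figure D3:**
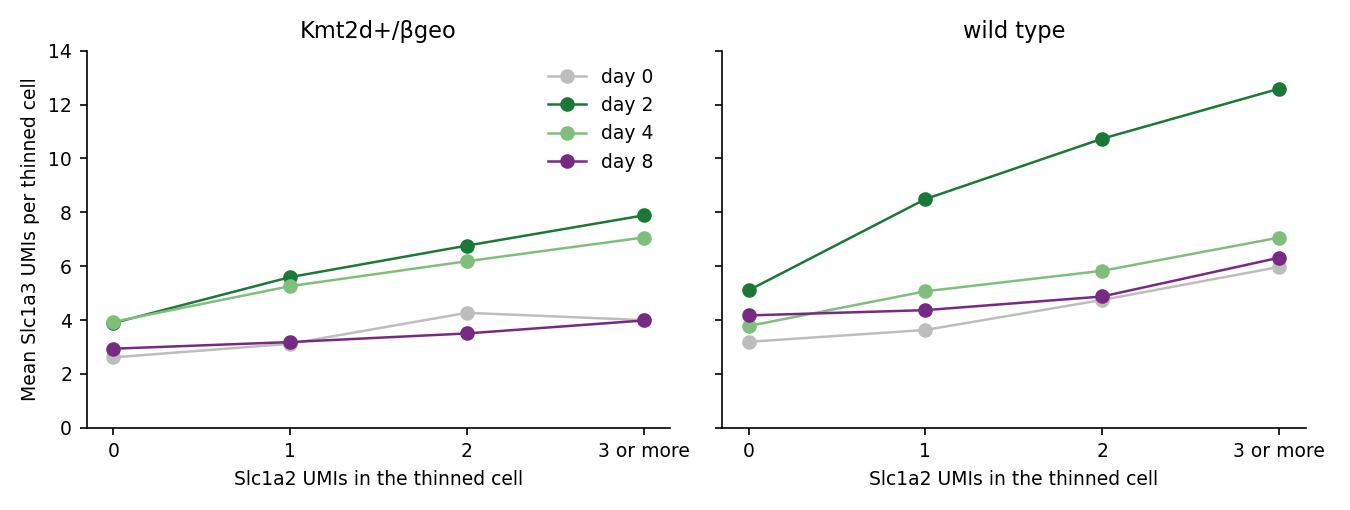
Mean Slc1a3 UMIs per thinned cell against the number of Slc1a2 UMIs in the same cell, with 1 line per day, for the libraries labelled Kmt2d+/βgeo (left) and wild type (right). The steepest line is wild-type day 2, from 5.10 to 12.6 UMIs, and the flattest are those of days 0 and 8.

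Cells with and without a UMI of a marker were then compared within each library, at 3000 UMIs per cell. Olig2, a transcription factor of oligodendrocyte precursors that is also found in cultured progenitors, marked cells with less of both carriers at days 2 and 4. At wild-type day 2, Slc1a2 was present in 45.6% of 2704 cells with an Olig2 UMI and in 71.6% of 1394 cells without, a difference of -26.0 percentage points (95% Newcombe interval -29.0 to -22.9). In Kmt2d+/βgeo at day 2 the difference was -13.1 points (-15.9 to -10.4), and at day 4 it was -18.5 between cells labelled Kmt2d+/βgeo and -22.3 between wild-type cells. At days 0 and 8 the intervals included 0 in both genotypes, with differences of -2.10 and -1.76 points at day 0, then -0.19 and -1.89 at day 8. Before thinning the day 0 differences were 2.35 and 0.39 points. Slc1a3 kept a difference at day 8, with 83.5% of wild-type cells with an Olig2 UMI against 97.0% without, and 85.5% against 91.8% in Kmt2d+/βgeo.

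With Gja1, Hopx and Sox9 the sign at day 2 was the opposite. Gja1 encodes the gap junction protein connexin of astrocytes, and cells with its UMI held Slc1a2 more often by 22.8 points in Kmt2d+/βgeo and 25.7 points in wild type at day 2, by 8.41 and 12.2 points at day 4, and by 2.52 (-1.58 to 6.62) and 2.41 points (-0.93 to 5.71) at day 8. For Hopx, a stem cell and astrocyte factor of the dentate gyrus, the differences were 9.69 and 21.7 points at day 2 and -0.34 and -1.72 points at day 8, both of the latter with intervals that included 0 and with the opposite sign before thinning (7.89 and 5.94). For Sox9, a glial transcription factor, they were 12.5 and 17.7 points at day 2. At day 8 the Sox9 difference in Slc1a2 was 0.29 points (-4.83 to 5.29) in Kmt2d+/βgeo and 4.95 points (0.14 to 9.48) in wild type. For Slc1a3 the Sox9 difference was 7.34 and 5.86 points at day 2 and stood at 8.63 and 7.75 points at day 8. Not all progenitor markers had that sign: Prox1, a transcription factor of dentate granule cells and their precursors, had an r with Slc1a2 of -0.063 and -0.096 and with Slc1a3 of -0.140 and -0.162 at day 2. Vim had a more negative r with Slc1a2 at day 2, of -0.272 and -0.316. Pax6 was close to 0 there (0.022 and 0.040), and Fabp7 was positive (0.241 in both genotypes). Of the dividing-cell marker Top2a, cells with a UMI at day 0 held Slc1a2 in 13.7% and 16.6% of cases, against 14.9% and 19% of those without, and before thinning the order was the opposite (36.3% against 35.1%, and 45.3% against 38.7%). At day 0 Slc1a2 was held by 16.1% (Kmt2d+/βgeo) and 21.6% (wild type) of cells with an Apoe UMI. Of cells without, 9.34% and 12.5% held it. These differences of 6.71 and 9.14 points had intervals that left out 0 and kept their sign before thinning. For Slc1a3 they were 1.53 and 1.06 points, with intervals that included 0. Negative day 0 differences in Slc1a2 for Map2 (Kmt2d+/βgeo), Top2a and Fabp7 (wild type) also left out 0 but turned sign unthinned.

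The correlation of the pair was also taken within these cells. At wild-type day 2 it was 0.503 over the cells with an Olig2 UMI and 0.381 over those without, and at wild-type day 8 it was 0.238 and 0.089. In Kmt2d+/βgeo the values were 0.392 and 0.275 at day 2, then 0.194 and 0.097 at day 8. The higher correlation of day 2 was therefore present on either side of the Olig2 split.

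Among the genes measured, those most like Slc1a2 over the cells were Slc4a4, a sodium bicarbonate carrier of astrocytes (mean r over the 8 libraries 0.419), Slc1a3 itself (0.379), Sparcl1 (0.370), Apoe (0.359) and Cst3 (0.356). Those most like Slc1a3 were Mt3, a brain metallothionein (0.563), Slc4a4 (0.496), Sparcl1 (0.458), Cst3 (0.455) and the fatty acid desaturase gene Scd2 (0.442). These values use unthinned cells and so share the depth of each cell. The likeness to Slc4a4 had the same day pattern as the pair: at 3000 UMIs per cell, r between Slc1a2 and Slc4a4 was 0.145 and 0.190 at day 0, 0.393 and 0.550 at day 2, then 0.175 and 0.188 at day 8. Other genes of these lists did not all share it. Between Slc1a2 and Apoe the thinned r was 0.238 and 0.244 at day 0, 0.401 and 0.460 at day 2, then 0.020 and 0.097 at day 8. Over unthinned wild-type cells, r between Slc1a3 and Scd2 was 0.503 at day 2 and 0.522 at day 8. Without the day 4 libraries, 4 of 5 genes stayed on the list of Slc1a2 and 5 of 5 on that of Slc1a3.

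Over the 8 library means the lists were different. Slc1a2 was followed most closely by Paqr8 (r = 0.994, n = 8 libraries), Fcho2 (0.990), Fam214a (0.984), Krit1 (0.979) and Slc4a4 (0.979). For Slc1a3 the nearest were Mfn1, a mitochondrial fusion gene (0.971), Gpr19 (0.953), 4931406C07Rik (0.951), Zfp219 (0.95) and Tspan7 (0.946). Paqr8, for example, had mean normalised counts of 0.20, 0.713, 1.29 and 0.663 in the libraries labelled Kmt2d+/βgeo and 0.297, 1.52, 1.2 and 0.607 in wild type, from day 0 to day 8. The members themselves had an r of 0.808 with each other, which put Slc1a3 at rank 482 of 6163 genes in likeness to Slc1a2. Without day 4, over 6 libraries, 2 of 5 genes stayed on the list of Slc1a2 and 1 of 5 on that of Slc1a3.

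The other genes of glutamate handling were taken from a list of 51, of which 28 were measured and 22 to 25 had a mean of at least 0.1 in a given comparison. From day 0 to day 2, 5 of 24 were higher and 1 lower in Kmt2d+/βgeo, and 6 higher and 1 lower in wild type. Against this, 10.7% and 8.08% of all genes compared were higher and 6.74% and 5.56% lower. The list's median log2 ratio was 0.28 and 0.47, beside 0.05 and 0.01 for all genes. Between days 2 and 8, 5 of 24 were higher and 3 lower in Kmt2d+/βgeo (11.3% and 10.2% of all genes), and 4 higher and 6 lower in wild type (8.55% and 6.14%).

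Of the enzymes, glutamine synthetase had its highest levels at days 2 and 4, as the carriers had. Glul had a mean normalised count of 1.23 and 1.60 at day 0 (Kmt2d+/βgeo and wild type), 3.14 and 7.35 at day 2, 5.10 and 4.90 at day 4, then 0.451 and 1.49 at day 8. Its day 2 over day 0 log2 ratio was 1.36 and 2.20, and from day 2 to day 8 it was -2.80 and -2.30. Over thinned wild-type cells of day 2, Glul correlated with Slc1a3 at r = 0.554 and with Slc1a2 at 0.453. At wild-type day 8 these were 0.168 and 0.166. Glud1, glutamate dehydrogenase, had 1.16 and 1.44 at day 0, 2.26 and 3.61 at day 2, 6.78 and 6.49 at day 4, then 2.15 and 3.30 at day 8. Abat, which breaks down GABA, was higher at day 2 in both genotypes, with log2 ratios of 1.55 and 1.63.

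The glutamine carrier Slc38a1 and the exchanger Slc7a11 had their highest levels at day 8. Slc38a1 had a mean normalised count of 1.26 and 1.66 at day 0, 4.37 and 5.05 at day 2, 9.61 and 8.73 at day 4, then 10.4 and 12.7 at day 8. Slc7a11, which trades cystine for glutamate, had 0.0530 and 0.0485 at day 0, then 0.927 and 0.854 at day 8. Of the other SLC1 carriers only Slc1a4 was measured, and its level lay between 0.104 and 0.208. Kcnj10, the potassium channel of astrocytes, had 0.235 and 0.238 at day 0, 0.336 and 0.622 at day 2, 0.789 and 0.790 at day 4, then 0.456 and 0.491 at day 8.

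From day 0 to day 8, 4 of 7 receptor genes compared were lower and 1 higher in Kmt2d+/βgeo, and 4 of 6 were lower and none higher in wild type, where 13.9% and 10.9% of all genes were lower and 19% and 16.3% higher. Gria3, Grm3 and Grm5 were among the lower ones in both genotypes. Grik4, a kainate receptor subunit, was the higher one in Kmt2d+/βgeo (0.0129 at day 0 and 0.159 at day 8). At day 8 a Grik4 UMI was present in 104 of 2206 thinned cells in Kmt2d+/βgeo and in 108 of 3208 in wild type. Grik5, another kainate receptor subunit, had 0.355 and 0.369 at day 0 and 0.691 and 0.595 at day 8. Gria3, an AMPA receptor subunit, was lower at day 2 in both genotypes, at 0.440 and 0.268 against 1.24 and 0.897 at day 0. Grm5, the glial and neuronal metabotropic receptor, had 1.84 and 2.98 at day 0, then 0.304 and 0.845 at day 8. Between genotypes, no gene of the list passed the threshold at days 0 and 4. At day 2 the 3 genes past it were all lower in Kmt2d+/βgeo, where 1.15% of all genes were: Glul (log2 ratio -1.23), Gria2 (-1.38) and Grm5 (-1.01). At day 8 again 3 were lower (2.81% of all genes) and none higher (2.06% of all genes): Glul (-1.73), Gria2 (-2.42) and Grm5 (-1.48).

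**Figure D4:**
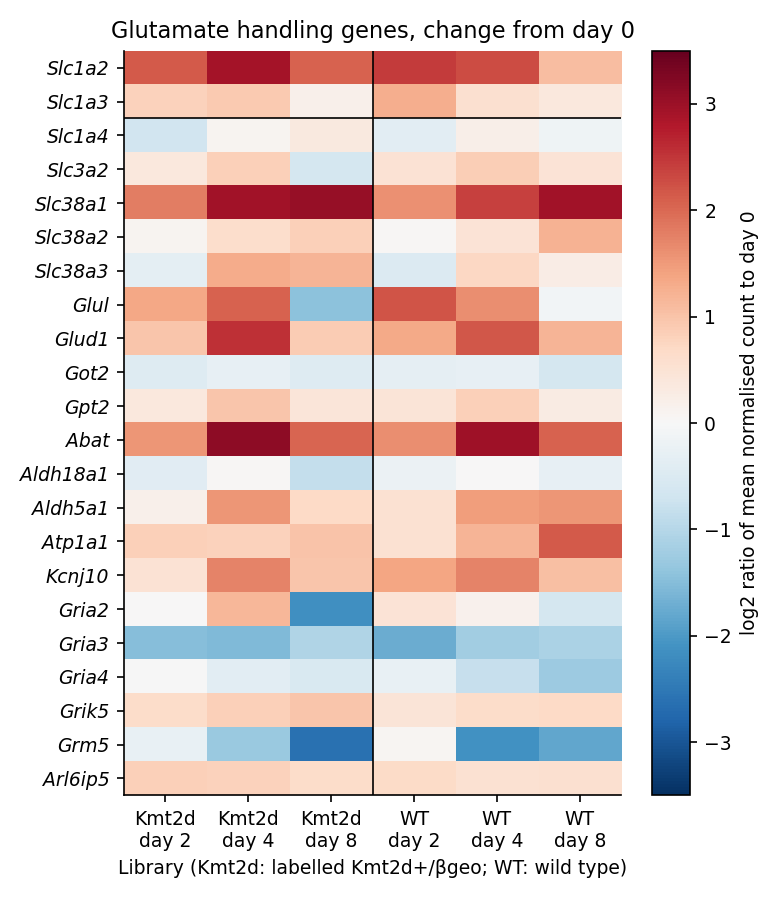
Colour gives the log2 ratio of the mean normalised count to that of day 0 of the same genotype, for Slc1a2, Slc1a3 and 20 genes of the glutamate list with a mean of at least 0.1 in all libraries, at days 2, 4 and 8. Values run from -2.60 to 3.14, and Slc1a2, Slc1a3 and Slc38a1 were among the genes above day 0 in all 6 columns.

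Of 9 astrocyte markers, 5 were measured (Apoe, Gja1, S100b, Aldh1l1 and Slc4a4), and Gfap, Aqp4, Aldoc and Gjb6 were not analysed here. From day 0 to day 2, 2 of 5 were higher past the threshold in Kmt2d+/βgeo and 5 of 5 in wild type, and from day 0 to day 8 it was 3 of 5 and 4 of 5, with none lower. Of all genes compared, 10.7% and 8.08% were higher at day 2 and 19% and 16.3% at day 8. From day 2 to day 8, 1 of 5 was higher in each genotype, and 2 of 5 were lower in Kmt2d+/βgeo and 1 of 5 in wild type (11.3% and 8.55% of all genes were higher, and 10.2% and 6.14% lower). Their summed mean normalised count was 17.2 and 9.18 at day 0, 217 and 162 at day 2, 256 and 236 at day 4, then 104 and 241 at day 8, most of it Apoe (94.7 to 244 after day 0). At day 2, where Slc1a2 was lower in Kmt2d+/βgeo than in wild type, the log2 ratio between genotypes was 0.49 for Apoe and -1.26, -0.91, -0.68 and -0.58 for Gja1, S100b, Aldh1l1 and Slc4a4. Olig2 was the 1 measured of 7 oligodendrocyte lineage markers and went from 5.53 and 8.09 at day 0 to 1.48 and 0.911 at day 8. Of 8 neuron markers 2 were among the 9140 genes (Map2 and Rbfox3), with summed levels of 2.87 to 4.17 that were mostly Map2. No marker of microglia, endothelium, mural cells or fibroblasts was among them. Genes outside the 9140 have no values here, so whether the cells held their RNA is not known. Rbfox3 itself had mean normalised counts of 0.00536 and 0.0174 at day 0, 0.0356 and 0.0501 at day 2, 0.170 and 0.176 at day 4, then 0.113 and 0.0472 at day 8. The part of these cell types in the result was not tested.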

How the data were processed

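Single-cell RNA libraries were made from NPC cultures of 2 genotypes on 4 days, 1 library each. The authors quantified spliced counts with Alevin in Salmon 1.3.0 on GRCm38 with a GENCODE annotation, and removed cells with few genes, cells that were outliers in total UMIs, genes, mitochondrial share or doublet score, mitochondrial genes and rarely detected genes. No doublet caller was run here. The deposited matrix holds log2(count divided by size factor + 1), and the deposited cell table gives the estimated counts (UMIs) per cell. Its library column assigned cells to samples. Seurat 3.2.2 is named in the processing notes for integration. Turned back to a linear scale, 86.8% of nonzero values lay within 0.01 of a whole number of UMIs, and the others were not accounted for.

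Levels are means of normalised counts. UMIs of the measured genes were estimated by dividing by each cell's commonest value and were thinned to 3000 per cell without replacement. Intervals (Poisson, exact binomial for shares, Newcombe for differences of shares, exact conditional for ratios) are at 95% and cover counting error only. A gene was called higher or lower at a log2 ratio of 1 with a mean of at least 0.1 in either library. Since each group is 1 library, no test between groups was made. Besides the pair, the text names the glutamate list, the cell type markers and the 5 genes most like each member. Measured genes of the glutamate list that have no values in the text or plot, 1 of them not reported here, are counted with the list. The members and lists were chosen with earlier results of these data known. Thinning and ratios were tested on simulated data, and the intervals were not. Python 3.11.15, NumPy 2.4.6, SciPy 1.17.1 and pandas 2.3.3 were used.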

Additional observations from a re-analysis of the deposited data

Results flagged for a closer look

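In 4 comparisons, given here by 12 ratios, the sign differed between days or between genotypes, and none of these differences was tested, since each group is 1 library. Between genotypes (Kmt2d+/βgeo over wild type), the log2 ratio of Slc1a2 was -0.53 at day 0 and -0.85 at day 2, but 0.0902 between the day 4 libraries and 0.44 at day 8. Slc1a3 was lower in Kmt2d+/βgeo at 3 days, with log2 ratios of -0.27, -0.73 and -0.46 at days 0, 2 and 8, and stood at 0.073 between the day 4 libraries. From day 2 to day 4 the log2 ratio of Slc1a2 was 0.78 in the libraries labelled Kmt2d+/βgeo and -0.16 in wild type, and that of Slc1a3 was 0.0916 and -0.71. Each sign change other than that of Slc1a2 at day 8 involves the library labelled Kmt2d+/βgeo day 4, in which Luzp2 was at the wild-type level. The Slc1a2 change at day 8 rests on the library with the lowest depth, and the ratio ran from 0.10 as a difference of mean log2 values to 0.48 without the deepest 5% of cells of both libraries.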

How the results depend on the processing

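Ratios below are log2, with Kmt2d+/βgeo before wild type unless said otherwise, and the cause of a shift was not tested. As a difference of mean log2 values, the day 2 over day 0 ratio of Slc1a2 was 0.78 and 1.15, that of day 8 over day 0 was 0.66 and 0.42, and those of day 8 over day 2 and over day 4 in wild type were -0.73 and -0.69. The genotype ratio of Slc1a2 was -0.13, -0.51 and 0.10 at days 0, 2 and 8. For Slc1a3 the same scale gave 0.61 and 0.96 for day 2 over day 0, -0.016 and 0.32 for day 8 over day 0 (the first with its sign turned), -0.63 for day 8 over day 2 in wild type, and genotype ratios of -0.26, -0.60 and -0.59 at days 0, 2 and 8. On this scale the genes past 1 fell from 110 to 2, from 209 to 10 and from 369 to 30 between genotypes at days 0, 2 and 8. For day 2 over day 0 they fell from 1308 to 100 and from 1016 to 71, for day 8 over day 2 from 1660 to 173 and from 1122 to 121, and for day 8 over day 0 from 2555 to 273 and from 2110 to 225. With a minimum mean of 0.5 these counts were 27, 83 and 176 between genotypes, 623 and 505 for day 2 over day 0, 883 and 581 for day 8 over day 2, and 1302 and 1071 for day 8 over day 0. With no minimum, 210 genes passed between genotypes at day 0.

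From pooled UMIs over those of the matrix, Slc1a2 had 2.42 and 2.64 for day 2 over day 0, -0.25 and -1.46 for day 8 over day 2, 2.17 and 1.18 for day 8 over day 0, and genotype ratios of -0.64 at day 0 and 0.36 at day 8. Slc1a3 had 0.95 and 1.37, -0.72 and -0.98, 0.22 and 0.39 for the same steps, and -0.32 between genotypes at day 0. Over all UMIs of the cell table, an alternative chosen after seeing the data, Slc1a2 had 2.36 and 2.58 for day 2 over day 0, 2.22 and 1.27 for day 8 over day 0, -1.3 for day 8 over day 2 in wild type, and -0.78 and 0.017 between genotypes at days 2 and 4. Slc1a3 had 0.89 and 1.3, 0.28 and 0.48, and -0.82 for these steps, and -0.25, -0.66 and 0.017 between genotypes at days 0, 2 and 4. Its day 4 over day 2 ratio in the libraries labelled Kmt2d+/βgeo turned to -0.0078. Without the 5% of cells with most UMIs, day 2 over day 0 was 2.08 and 2.40 for Slc1a2 and 1.26 for Slc1a3 in wild type. No alternative but the mean log2 scale took a member across the threshold.

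Without thinning, the log2 odds ratio of the pair was 1.58 and 1.42 at day 0, 3.0 and 4.15 at day 2, 2.86 and 3.37 at day 4, then 1.43 and 1.65 at day 8. At 5000 UMIs it was 1.12 in Kmt2d+/βgeo at day 0, then 1.21 and 1.43 at day 8. With 2 or more UMIs of each gene it was 1.81 and 1.86 at day 0 and 3.0 in Kmt2d+/βgeo at day 2. The Slc1a2 share of the pair from mean normalised counts was 5.87% in Kmt2d+/βgeo at day 0, 13.5% and 14.5% at day 2, then 20.05% and 19.9% at day 4. Unthinned, depth differs between cells with and without a marker, and 22 of 132 differences by marker had the opposite sign, 5 of them with a thinned interval that left out 0. Among those 5, the difference in cells with Slc1a2 turned to 7.36 points for Map2 in Kmt2d+/βgeo and to 6.55 for Top2a and 8.86 for Fabp7 in wild type, all at day 0, where that in Slc1a3 by Fabp7 turned to -1.13 and -0.87 points. Thinned, these Fabp7 differences were -15.3 points for Slc1a2 in wild type and 13.6 and 22.1 points for Slc1a3. They rest on few cells, since just 31 (Kmt2d+/βgeo) and 27 (wild type) thinned day 0 cells lacked a Fabp7 UMI. Of the other 17, differences in Slc1a2 turned to 2.35 and 0.39 points for Olig2 at day 0, to 1.15 for Top2a in Kmt2d+/βgeo at day 0, and at day 8 to 7.89 and 5.94 points for Hopx and 11.9 and 16.9 for Fabp7. Another random seed for the thinning kept all shares within their intervals. With that seed the log2 odds ratio was 0.73 and 0.84 at day 0 and 2.22 and 3.22 at day 2. It was 2.09 and 2.29 at day 4, then 0.62 and 0.67 at day 8. At wild-type day 0 it had been 0.42 with the first seed, so the order of days 0 and 8 depends on the seed. No test was made, and an additive model of genotype and day over the 8 libraries, in which the days would pair the genotypes, was not run. Depth limits the Kmt2d+/βgeo day 8 library most, where 759 of 2965 cells held under 3000 UMIs of the measured genes.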

Other observations

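Vim, an intermediate filament gene of radial glia and reactive astrocytes, sat differently beside the carriers. Over cells thinned to 3000 UMIs its r with Slc1a2 was -0.272 in Kmt2d+/βgeo and -0.316 in wild type at day 2 and -0.142 and -0.081 at day 8. Its r with Slc1a3 was 0.006 and -0.176 at day 2, and 0.037 and 0.282 at day 8. Olig2 had an r with Slc1a3 of -0.395 and -0.471 at day 2 and of -0.007 and -0.043 at day 0. Fabp7, the radial glia fatty acid binding protein, had an r with Slc1a3 of 0.461 and 0.420 at day 2 and of 0.055 and 0.016 at day 8. Each is a description over the cells of 1 library, which share that library's depth and handling.

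The glutamine carrier Slc38a1, whose mean level was several times higher at day 8 than at day 0, had an r with either carrier gene between -0.131 and 0.065 in all 8 libraries.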
